A study of Zea mays with 24 samples.

Results

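Shoots of re-watered seedlings of the maize inbred line Ye478 were compared with shoots of its watered controls. The comparison used the 3 arrays titled as Ye478 re-watering and the 3 titled as Ye478 control, 6 of the 24 arrays of the series. The series also holds the inbred line Han21, and for each line has 4 groups of 3 arrays, namely watered control, moderate drought, severe drought and re-watered plants. All plants were seedlings at the 3-leaf stage, and no transgene or added agent is named. RNA was hybridised to a short-oligonucleotide maize genome array, and a value is a signal intensity in arbitrary units. The labels call the tissue shoot, while the extraction protocol speaks of mesocotyls. They give neither the age of the plants, the soil water, the length of the drought nor the time between re-watering and harvest. The titles call the 3 replicates of a group biological. The design text speaks of 2 independent experiments without tying replicates to them, and what separates the replicates is not given, so p-values measure the spread between these arrays.

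A plant that loses water accumulates abscisic acid, a hormone made from carotenoids that closes stomata and switches on protective genes. Dehydrins and other late embryogenesis abundant (LEA) proteins, best known from drying seeds, protect membranes and proteins, and heat shock proteins keep other proteins folded. When water returns, cells refill through aquaporins, the water channels of the plasma membrane and the vacuole, and growth and photosynthesis can resume. The comparison asks which transcripts stood away from the watered level once the plants had been re-watered.

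Of 12111 probe sets bright enough to be tested, 3428 differed between re-watered and control plants at an adjusted p under 0.05 in limma (28.3%). Re-watered plants were higher for 1458 (12%) and lower for 1970 (16.3%). At least 2-fold differences were called for 1131, of which 550 were higher and 581 lower, and 88 differed at least 8-fold. Values below are log2 fold changes on the scale of signal plus 4.56 units, with the standard error of the model and 3 arrays in each group. Leaving out replicate 2 of every group brought the count to 1698. Severe drought, tested against the same 3 control arrays, called 7704 (63.6%), with 3665 higher (30.3%) and 4039 lower (33.3%). The 2 comparisons share their controls and are only set side by side. Each group is a separate set of arrays, so rises and falls below compare groups and do not follow plants through time. Against severe drought, re-watered plants differed for 7944 (65.6%), with 3818 higher (31.5%) and 4126 lower (34.1%).

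Every array had been scaled to a trimmed mean of 500.1 to 500.2 units, yet the re-watered arrays had lower medians (155.0 to 170.2 units) than the controls (173.1 to 192.9). The median change over all tested probe sets was -0.07, against 0.01 after centring each array on its median, which turned the share of higher calls from 42.5% to 52.4%. The ratios of the 3' to the 5' probe sets overlapped between the groups for all 7 RNA control pairs. Deviations from the group means correlated at 0.692, 0.154 and 0.435 between control and re-watered arrays numbered 1, 2 and 3. Control replicate 2 correlated more with re-watered replicate 3 (0.284) than with its own number. Of 17621 probe sets for genes, 1452 carry the name of exactly 1 gene. The 887 named genes tested included 158 that were higher and 164 that were lower (36.3%), with a median of -0.02, and these 2 values are the background for the gene lists below. They hold for re-watering only. List counts under severe drought stand beside its shares over all tested probe sets, 30.3% higher and 33.3% lower. Genes picked out by name beyond the naming rule of the methods were chosen after their values were seen.

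**Figure D1:**
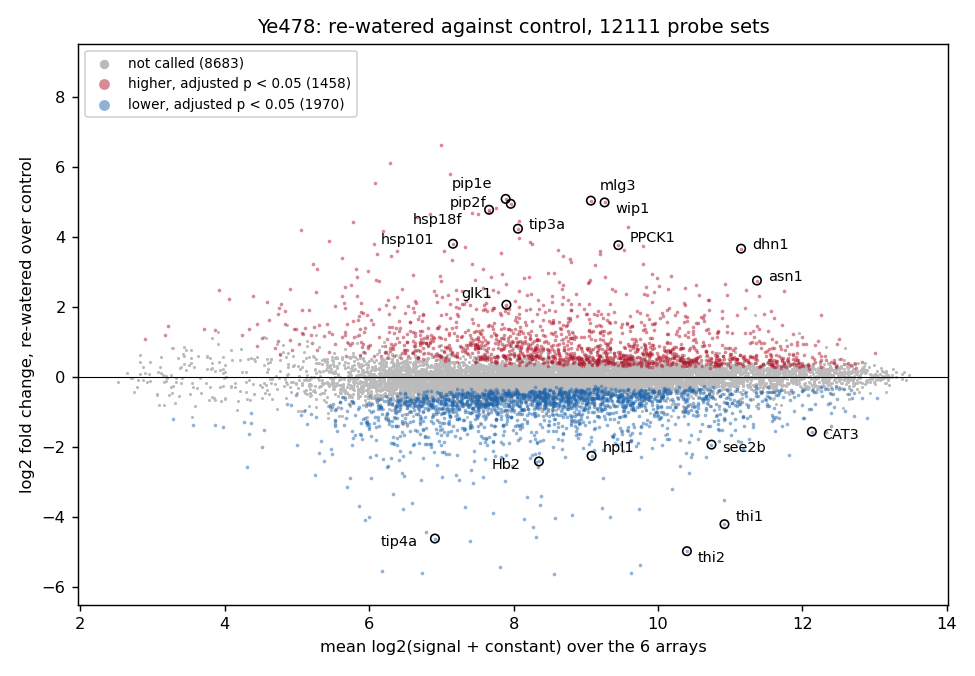
Log2 fold change of re-watered over control Ye478 (vertical axis) against the mean log2 signal over the 6 arrays (horizontal axis) for 12111 probe sets. Red and blue points are the 1458 higher and 1970 lower calls at an adjusted p under 0.05, and circles mark genes described in the text.

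The tissue was checked against its markers. Leaf genes were bright: the Rubisco small subunit gene rbcs1 read 6386, 6514 and 4984 units in the controls and 5995, 5654 and 5391 units in re-watered plants. Of 10 leaf markers, 3 were higher and 1 was lower, and their summed signal was 81160 to 103813 units in the controls and 97678 to 121915 in re-watered plants. Only 2 of 19 endosperm markers and 3 of 18 pollen and flower markers passed the filter on low signal. Among those, bt2 (endosperm) was lower and ts2 (pollen and flower) was higher. The pollen and flower list also took in prf5, which was lower. It is a gene for a profilin, a protein of the actin cytoskeleton, and is not read as a marker of those cells. Neither prf5 nor ts2 was called without control replicate 1 or re-watered replicate 1 or 2, nor prf5 without control replicate 2 or after median centring, nor ts2 without control replicate 3. Summed signals over all listed endosperm markers were 482 to 553 and 328 to 496 units. Those of the pollen and flower list were 6253 to 7191 and 5874 to 6177 units, with prf5 included, so they do not measure pollen or flower cells. In bulk shoots, fewer cells of a type and less RNA per cell cannot be told apart.

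The dehydrin genes dhn1 and dhn2 and the LEA gene mlg3 stood far above the watered level in re-watered plants. They were 3 of the 4 dehydrin and LEA genes tested, none was lower, and the median was 3.26. The dehydrin gene dhn1 read 915, 1541 and 180 units in the controls and 8930, 8842 and 6675 units in re-watered plants. Every re-watered array lay above every control, although the controls themselves spread widely. Its change was 3.66 ± 0.60 (adjusted p = 7.49e-05), against 4.42 ± 0.60 under severe drought, where the signals were 15084, 18414 and 9175 units. The group 3 LEA gene mlg3 rose from 67.5, 234 and 43.9 units to 2435, 3875 and 3039 units, a change of 5.03 ± 0.57 (adjusted p = 6.48e-07). Severe drought had put it at 10862, 12850 and 9948 units, so the re-watered arrays lay between the control and the severe ones. The same order held for dhn2, a further dehydrin, with 486, 314 and 502 units in the controls, 3174, 3517 and 2751 units after re-watering and 7483, 7591 and 7228 units under severe drought. It rose by 2.87 ± 0.18 (adjusted p = 4.97e-11). The 4th member, esp5, had 7.68, 2.36 and 2.69 units in the controls and 18.9, 3.19 and 8.82 units after re-watering, below the filter level of 72.6 to 106.8 units and overlapping (0.66 ± 0.48, adjusted p = 0.334), while severe drought gave 160, 187 and 155 units.

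Of 8 seed maturation genes 2 were called higher after re-watering and none lower. The filter on low signal left 6 to test, and all of these but tip3a averaged below its level in control and re-watered plants, so they passed it through the drought arrays. The 6 were called higher under severe drought, which the filter in part fixes. The 2 left out, glb2 and glb3, averaged 10.3 and 9.30 units in the controls and 11 and 11.3 under severe drought. The vacuolar aquaporin gene tip3a, of a family known from seeds, read 68.2, 80 and 33.3 units in the controls, 1203, 1687 and 752 units in re-watered plants and 11426, 11325 and 8546 units under severe drought. It stood 4.23 ± 0.54 above control after re-watering (adjusted p = 3.55e-06) and fell by 3.16 ± 0.54 from severe drought to re-watering (adjusted p = 3.21e-05). The storage globulin gene glb1 read 13, 25.1 and 20.2 units, then 55, 87.4 and 47.5 units, against 1638, 1282 and 1796 units under severe drought. Its signals lay below the filter level on most arrays. Its change of 1.49 ± 0.47 (adjusted p = 0.0217) was not called when no constant was added (adjusted p = 0.117), nor without control replicate 1 or re-watered replicate 2, each of which left 1 member called. The other members had low signal after re-watering. The oleosin gene ole1 read 9.56, 14.3 and 22 units after re-watering (0.57 ± 0.39), and the peroxiredoxin gene per-1 read 10.4, 10.4 and 8.99 units (0.85 ± 0.32), with adjusted p of 0.300 and 0.0529. The seed aquaporin gene tip3b read 34, 56.2 and 37.3 units against 29.1, 25.1 and 29 units in the controls (0.52 ± 0.34, adjusted p = 0.282). For esp1 the arrays did not overlap, with 3.84, 25.9 and 15.7 units in the controls and 43, 40 and 49.2 units after re-watering, but the call was missed (1.49 ± 0.58, adjusted p = 0.0614). The calls of esp1 and per-1 were made after median centring (adjusted p = 0.0492 and 0.0389), which took the number of higher members to 4. Both were also called when no constant was added and when only the 12 Ye478 arrays were fitted. So was esp1 with only the 6 compared arrays, and per-1 with quantile normalization or without the intensity trend.

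Genes of abscisic acid synthesis and signalling were higher for 5 of 9 and lower for 2, with a median of 0.65. The gene vp14 encodes the 9-cis-epoxycarotenoid dioxygenase that makes the first committed cut towards abscisic acid. It read 51.7, 42.7 and 51.3 units in the controls, 142, 102 and 126 units after re-watering and 360, 428 and 533 units under severe drought. Its re-watered arrays stood above all controls by 1.26 ± 0.29 (adjusted p = 0.00252) and below all severe ones. The beta-carotene hydroxylase gene BCH2, upstream in the same path, read 1640, 1376 and 1532 units and 5475, 5294 and 5052 units, a rise of 1.80 ± 0.10 (adjusted p = 1.44e-11), and 7465, 7773 and 7683 units under severe drought. A different order was seen for the phytoene synthase gene psy2, with 59.8, 90.2 and 76.6 units in the controls, 220, 215 and 428 units after re-watering and 20.6, 47.5 and 32.1 units under severe drought. It was 1.81 ± 0.34 above control (adjusted p = 3.13e-04) after re-watering and stood at -1.12 ± 0.34 under severe drought. The gene psy2 thus moved in opposite directions in the 2 comparisons. Its severe drought signals lay below the filter level and its control signals below or within the range of that level. The sizes of both changes are therefore uncertain, and the rise was 1.65 with 4 times the constant. The bZIP factor gene GBF1 rose by 1.12 ± 0.18 (adjusted p = 7.22e-05), from 160, 120 and 171 units to 294, 338 and 358 units. Of the protein phosphatase 2C genes, whose family holds inhibitors of abscisic acid signalling, PP2C rose by 0.65 ± 0.18 and pp2c-1 fell by 0.49 ± 0.16, with adjusted p of 0.00844 and 0.0234. The call of PP2C was lost without control replicate 3 or re-watered replicate 1, and its second probe set gave 0.65 (adjusted p = 0.00106). The phytoene desaturase gene pds1 fell by 0.38 ± 0.12 (adjusted p = 0.0245). Neither fall was called when only the 6 compared arrays were fitted, or without control replicate 2 or re-watered replicate 1 or 2, and 1 of them was left without control replicate 1 or 3. The fall of pds1 was also not called after median centring (adjusted p = 0.0808). The zeta-carotene desaturase gene vp9 (0.22 ± 0.18) and the aldehyde oxidase gene AO1 (0.45 ± 0.24) were not called (adjusted p = 0.397 and 0.177). AO1 was called with the replicate number as a block (adjusted p = 0.0410) and with quantile normalization (adjusted p = 0.0172).

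**Figure D2:**
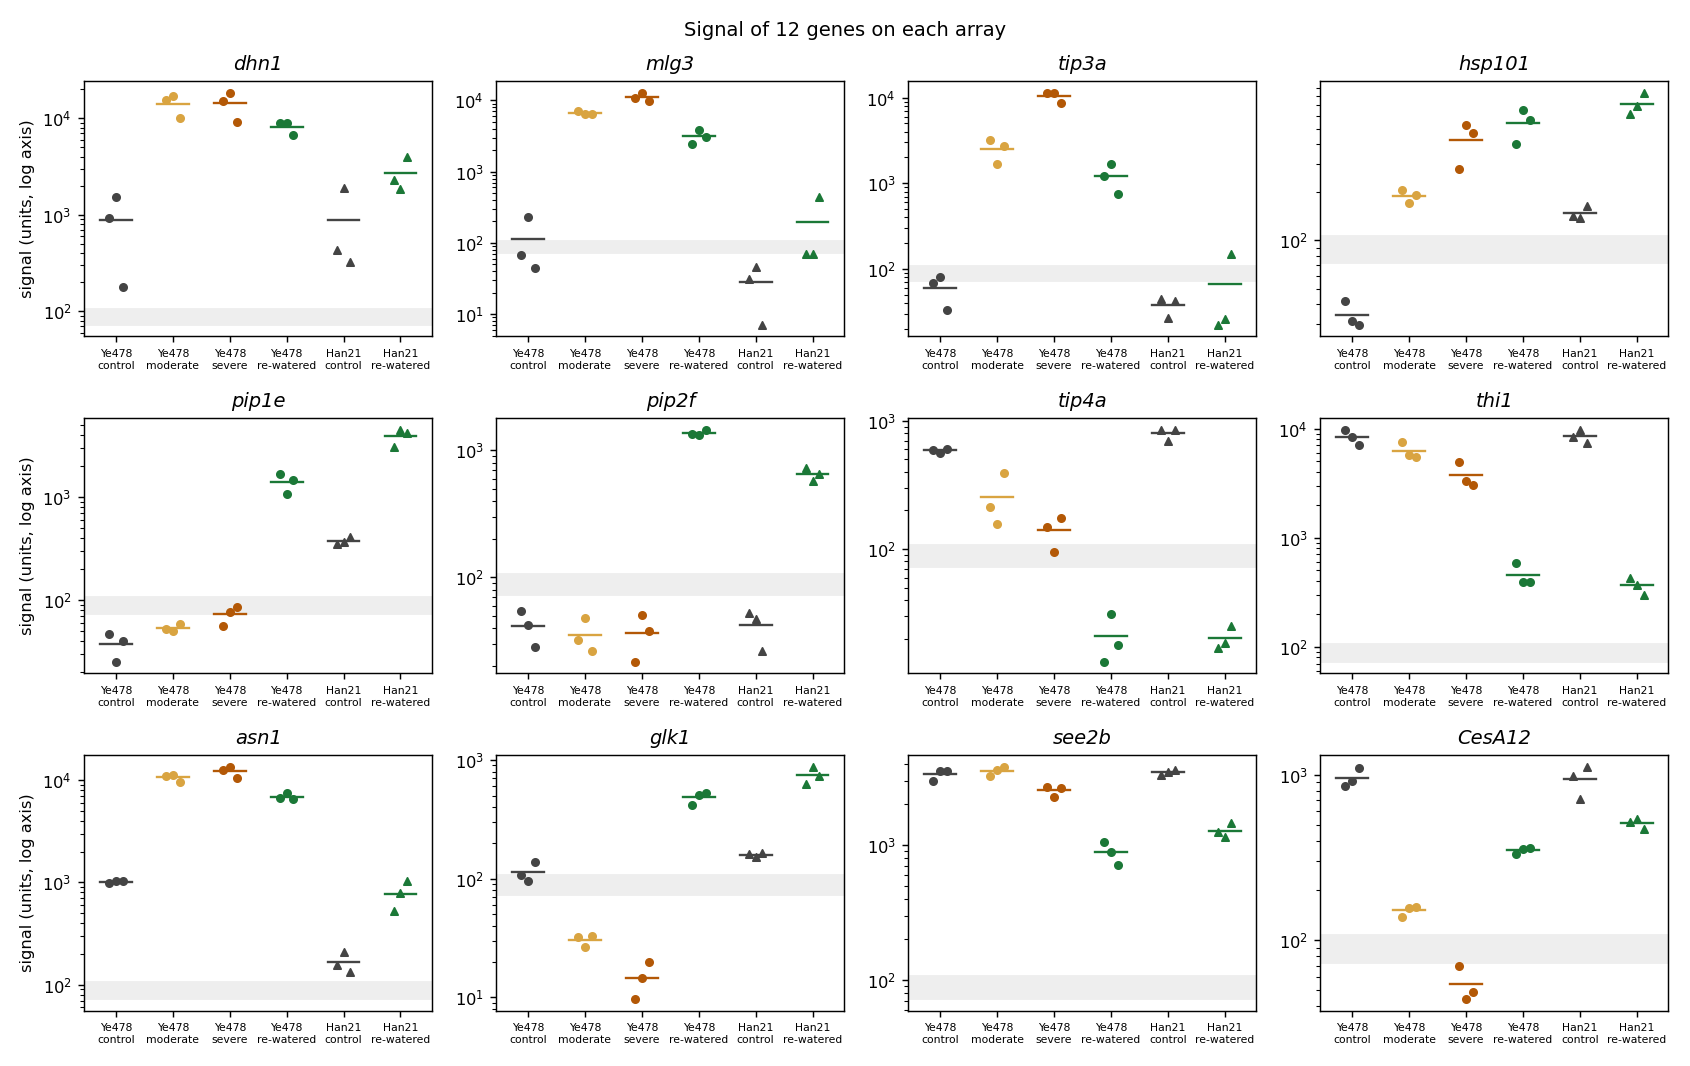
Signal on each array (units, log axis) of 12 genes in the 4 Ye478 groups (circles) and in Han21 control and re-watered plants (triangles), with a line at each group mean. The grey band is the filter level of 72.6 to 106.8 units. The re-watered Ye478 arrays of dhn1 (8930, 8842 and 6675 units) lie above its controls (915, 1541 and 180 units), and those of thi1 (586, 390 and 391 units) lie below its controls (9687, 8436 and 7059 units).

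Of 25 heat shock and chaperone genes 7 were higher in re-watered plants, 3 were lower and 15 were not called, with a median of 0.06. Heat shock proteins made up 6 of the 7. The gene hsp18f, for a small heat shock protein, went from 44.4, 25.8 and 34.5 units to 1048, 1046 and 1069 units, a rise of 4.77 ± 0.25 (adjusted p = 5.61e-12). The 3 re-watered arrays were nearly level and lay above the severe drought arrays (590, 678 and 600 units) as well. The hsp101 gene, for the chaperone that pulls apart protein aggregates, read 41.7, 31.3 and 29.7 units in the controls and 402, 653 and 569 units after re-watering (3.80 ± 0.21, adjusted p = 1.11e-11). Under severe drought it had read 279, 529 and 469 units, a range that overlaps the re-watered one. The small heat shock genes hsp18a and hsp22 rose by 2.97 ± 0.26 and 2.85 ± 0.20 (adjusted p = 1.61e-08 and 3.52e-10). For hsp18a, re-watered signals (1118, 996 and 888 units) lay above the controls (147, 130 and 98.6 units) and below severe drought (1165, 1750 and 1132 units). For hsp22 they lay at 820, 822 and 729 units, above both the controls (94.5, 134 and 92.9 units) and severe drought (279, 415 and 411 units). The remaining heat shock members that were higher were hsp18c and hsp18, joined by bip2, a chaperone of the endoplasmic reticulum. The 3 lower ones were protein disulfide isomerase genes, pdi, pdi10 and pdi11, which help form disulfide bonds there. Small heat shock genes are alike in sequence, so the split of signal among them is uncertain.

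Aquaporins were among the named genes with the largest changes in both directions. Of 22 tested genes 11 were higher and 2 were lower, with a median of 0.54. Under severe drought, 7 were called higher and 9 lower, where 30.3% of all tested probe sets were higher and 33.3% lower. The plasma membrane channel gene pip1e read 46.6, 25.2 and 40.5 units in the controls, 56.7, 76.7 and 85.4 units under severe drought and 1690, 1058 and 1464 units after re-watering. Its control signals lay below the filter level, so the size of its rise, 5.08 ± 0.23 (adjusted p = 2.85e-13), ranged from 4.67 with 4 times the constant to 5.27 over the alternatives tried. The gene pip2f, of the other plasma membrane subfamily, showed a similar pattern, with 54.2, 42 and 28.5 units in the controls, 21.6, 50.6 and 37.6 units under severe drought and 1349, 1313 and 1453 units after re-watering (4.94 ± 0.31, adjusted p = 6.47e-11). A further channel of this kind, pip2-5, stood at 14.2, 28 and 18.6 units in the controls and 279, 291 and 286 units after re-watering (3.58 ± 0.32, adjusted p = 1.77e-08). For pip2f and pip2-5 the severe drought arrays overlapped the controls, with changes of -0.19 ± 0.31 and 0.06 ± 0.32 (adjusted p = 0.606 and 0.877). The control signals of both genes, and the severe drought signals of pip2f, lay below the filter level, where a change is hard to see. Among the Ye478 signals quoted, both cleared that level only after re-watering, which in part fixes their higher calls. The other members that rose were pip2b, pip2c, pip2d, PIP1-1, PIP1-3, nip2b and nip3a, beside tip3a above. A second probe set for pip2c gave -0.18 (adjusted p = 0.415), and its call was lost without control replicate 3 or re-watered replicate 1 or 2. That of pip2b was lost without control replicate 2 or re-watered replicate 3, and that of pip2d with quantile normalization and without any 1 of the 6 arrays but re-watered replicate 1. On the other side, the vacuolar channel gene tip4a fell from 595, 561 and 607 units in the controls to 13.2, 31.3 and 18 units, by 4.61 ± 0.27 (adjusted p = 2.72e-11). Under severe drought tip4a read 148, 95.6 and 175 units, so the re-watered arrays were the lowest of the 3 groups. The silicon channel gene Lsi6 fell by 1.21 ± 0.27 (adjusted p = 0.00175), from 182, 182 and 349 units to 70.9, 85.8 and 140 units. Plasma membrane aquaporins are close in sequence, and cross-hybridisation among them was not tested.

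**Figure D3:**
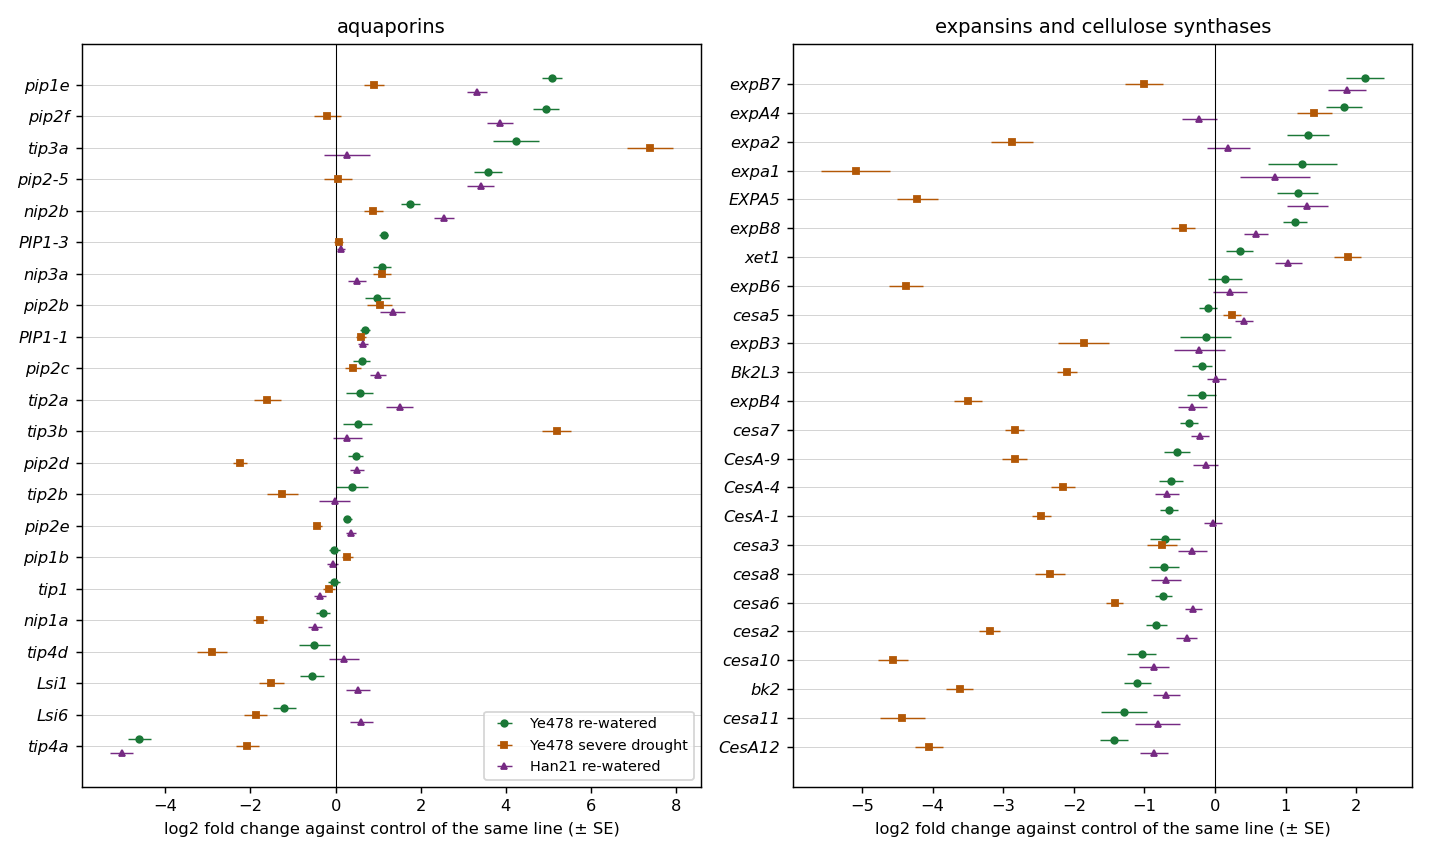
Log2 fold change against control of the same line (horizontal axis, ± SE) for the 22 tested aquaporin genes and the 24 tested expansin and cellulose synthase genes (rows), in re-watered Ye478 (circles), Ye478 under severe drought (squares) and re-watered Han21 (triangles). After re-watering pip1e stood at 5.08 ± 0.23 and tip4a at -4.61 ± 0.27, and CesA12 at -1.43 ± 0.20 against -4.05 ± 0.20 under severe drought, where the Ye478 comparisons share their control arrays.

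Both thiamine genes on the list fell steeply. They encode the enzyme that builds the thiazole part of vitamin B1 in the chloroplast. The thi1 signal was 9687, 8436 and 7059 units in the controls, 4903, 3321 and 3016 units under severe drought and 586, 390 and 391 units in re-watered plants. That of thi2 was 9221, 7467 and 6344 units, 5402, 4379 and 2908 units and 279, 293 and 163 units in the same order. In both, the re-watered arrays lay far below the other groups, and the changes from control were -4.20 ± 0.19 for thi1 and -4.97 ± 0.27 for thi2 (adjusted p = 4.51e-13 and 1.09e-11). From severe drought to re-watering they changed by -3.02 ± 0.19 and -4.08 ± 0.27 (adjusted p = 2.56e-11 and 5.17e-11). The pair is alike in sequence, and some probe signal may be shared.

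Sugar and starch genes split by enzyme. Of 17 tested, 4 were higher and 6 were lower, with a median of -0.19. The vacuolar invertase gene ivr2, whose product cleaves sucrose, read 572, 576 and 749 units in the controls and 3270, 2845 and 2222 units after re-watering (2.12 ± 0.16, adjusted p = 1.22e-09). Severe drought had lowered it to 217, 229 and 180 units. The granule-bound starch synthase gene GBSSIIa rose by 2.82 ± 0.23 (adjusted p = 5.35e-09), from 97.3, 80.5 and 138 units to 652, 689 and 943 units, while severe drought had it at 60.9, 30.3 and 39.9 units. The sucrose synthase gene sus2 stood between its control and severe drought levels after re-watering. It read 190, 150 and 161 units in the controls, 459, 579 and 780 units after re-watering and 4529, 5398 and 5242 units under severe drought (1.81 ± 0.17 after re-watering, adjusted p = 4.69e-08). The 4th higher member was the cell wall invertase gene incw1. Lower members were sbe1, zpu1, bt2, ss1, GLG1 and sps1, of which the first 4 listed act in starch metabolism and sps1 makes sucrose phosphate. The branching enzyme gene sbe1 fell by 1.43 ± 0.19 (adjusted p = 4.98e-06), from 484, 381 and 485 units to 166, 130 and 201 units, with no overlap.

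Nitrogen assimilation genes were higher for 5 of 10 and lower for none, with a median of 0.26. The asparagine synthetase gene asn1, which makes a nitrogen-rich transport amide, read 992, 1033 and 1024 units in the controls and 6680, 7417 and 6527 units after re-watering (2.75 ± 0.19, adjusted p = 3.13e-10). Severe drought had it at 12458, 13440 and 10472 units, above every re-watered array. The nitrate reductase gene NNR1 moved otherwise, from 149, 87.7 and 154 units under severe drought to 2485, 2021 and 2576 units after re-watering, against 685, 650 and 1035 units in the controls. It stood 1.60 ± 0.26 above control (adjusted p = 6.32e-05). The nitrite reductase gene NIR rose by 0.83 ± 0.20 and the glutamine synthetase gene gln2 by 1.65 ± 0.28 (adjusted p = 0.00279 and 1.19e-04), and GLN6 was the other higher member, a call lost without control replicate 3 or re-watered replicate 1. Without replicate 2 of every group 3 were called. Outside the lists, the serine acetyltransferase gene sat1, at the entry to cysteine synthesis, rose from 237, 172 and 323 units to 2985, 3281 and 3483 units (3.75 ± 0.22, adjusted p = 2.90e-11). The inositol phosphate synthase gene INO1 read 132, 126 and 158 units in the controls, 276, 251 and 345 units under severe drought and 1330, 1344 and 1497 units after re-watering. Its re-watered arrays were the highest of the 3 groups, 3.29 ± 0.17 above control (adjusted p = 3.76e-12). Falls outside the lists included the monosaccharide transporter gene mstr1 (by 2.27 ± 0.21), SAG (by 1.81 ± 0.16) and the hypersensitive-induced reaction gene hir3 (by 1.65 ± 0.15). Their adjusted p were 3.07e-08, 1.61e-08 and 3.14e-08. The SAG arrays went from 2068, 2417 and 2647 units in the controls to 3980, 4202 and 4282 units under severe drought and 665, 722 and 629 units after re-watering, so it was called higher in one comparison and lower in the other.

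Few photosynthetic genes were called lower than control after re-watering, and most were not called in either direction. Of 17 genes of the light reactions 5 were higher and 1 was lower, with a median of 0.20. Severe drought had 2 higher and 13 lower, beside 30.3% higher and 33.3% lower over all tested probe sets. The transcription factor gene glk1, which acts in chloroplast development, read 9.70, 14.7 and 19.7 units under severe drought, 108, 95 and 137 units in the controls and 421, 507 and 525 units after re-watering. All re-watered arrays exceeded all controls (2.06 ± 0.20, adjusted p = 7.16e-08). The antenna protein gene lhcb5 read 1325, 723 and 810 units under severe drought, 4742, 3694 and 3590 units in the controls and 9207, 8532 and 7684 units after re-watering (1.09 ± 0.19, adjusted p = 1.27e-04). The pgr5 gene, for a factor of cyclic electron flow, rose by 1.88 ± 0.20 (adjusted p = 2.04e-07), but a second probe set for it gave 0.29 and was not called (adjusted p = 0.144). The photosystem I subunit gene psad1 fell by 0.57 ± 0.15 (adjusted p = 0.00552). Without control replicate 3 or re-watered replicate 1, and without any 1 replicate number, 3 were called higher. In carbon fixation, 3 of 12 were higher and 1 was lower, with a median of 0.00. PPCK1, the kinase that activates phosphoenolpyruvate carboxylase, read 166, 197 and 194 units in the controls, 1091, 1055 and 993 units under severe drought and 2842, 2814 and 2115 units after re-watering. Its rise was 3.76 ± 0.16 (adjusted p = 1.98e-13). The carboxylase gene itself, pep1, had 10310, 10306 and 7404 units in the controls, 3445, 2502 and 1989 units under severe drought and 10514, 9311 and 8019 units after re-watering. The re-watered and control arrays overlapped (-0.00 ± 0.26, adjusted p = 0.998). Rubisco activase, rca1, was 0.99 ± 0.15 above control (adjusted p = 2.66e-05), and the malic enzyme gene me3 rose by 0.43 ± 0.14 while the malate dehydrogenase gene mdh6 fell by 0.38 ± 0.13 (adjusted p = 0.0293 and 0.0335). The call of mdh6 was lost after median centring (adjusted p = 0.150) and without control replicate 1 or 2 or re-watered replicate 2, and that of me3 without control replicate 2 or 3 or re-watered replicate 1 or 2.

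Cell wall genes divided into expansins and cellulose synthases. Of 24 tested 5 were higher, all of them expansins, which loosen the wall. Of the 12 lower ones 11 were cellulose synthases and the other was bk2, a gene of stem strength. The median was -0.28, and median centring left 10 lower. The expansin genes expB7 and expA4 rose by 2.13 ± 0.27 and 1.83 ± 0.25 (adjusted p = 2.43e-06 and 6.56e-06), and expB8 by 1.14 ± 0.17 (adjusted p = 1.68e-05). For expB7 the signal went from 24, 28.9 and 21.2 units under severe drought to 305, 222 and 236 units after re-watering. Its controls read 58.7, 50.5 and 53.7 units. These control and severe drought signals lay below the filter level, so the size of its rise is uncertain. The rise was 1.90 with 4 times the constant. CesA12, of the secondary wall group, read 850, 911 and 1105 units in the controls, 69.5, 44 and 48.6 units under severe drought and 333, 355 and 360 units after re-watering. Its re-watered arrays stood between the other groups, and against control it fell by 1.43 ± 0.20 (adjusted p = 1.09e-05). Under severe drought, 21 of the 24 genes had been called lower and 2 higher, beside 33.3% lower and 30.3% higher over all tested probe sets.

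Genes of DNA replication and the cell cycle were lower for 6 of 16 and higher for 1, with a median of -0.38. The centromeric histone gene cenH3 read 227, 241 and 242 units in the controls and 94.8, 103 and 98.5 units after re-watering (-1.22 ± 0.19, adjusted p = 3.26e-05). The sliding clamp genes pcna1 and pcna2 fell (log2 fold changes of -0.68 ± 0.13 and -0.78 ± 0.20, adjusted p = 3.31e-04 and 0.00576). For pcna2 the re-watered arrays (206, 238 and 226 units) lay between the controls (373, 363 and 427 units) and severe drought (47.5, 60.1 and 43.1 units). Without replicate 3 of every group 3 were lower. The gene hon101 fell by 0.77 ± 0.20 (adjusted p = 0.00526). Other lower members were his2b5 and cycD2, and cks1 was the higher one, which was not called in any of the fits that left out 1 replicate number, nor without any 1 of the 6 arrays but control replicate 1. The call of cycD2 was lost after median centring and without control replicate 1 or 3 or re-watered replicate 3. Among tubulin and actin genes 1 of 15 was higher and 2 were lower, with a median of -0.21. TUBC rose by 0.87 ± 0.18 and TUBB2 fell by 0.64 ± 0.21 (adjusted p = 0.00109 and 0.0270), and no lower call was left after median centring or without control replicate 1 or re-watered replicate 1, and 1 was left without replicate 2 of either group. TUBB2 was also not called with quantile normalization or without re-watered replicate 3. Of 19 cytosolic ribosomal protein genes 3 were higher and none was lower, with a median of 0.18. Severe drought had called 10 lower, beside 33.3% of all tested probe sets. RP-P0 rose by 0.67 ± 0.11 (adjusted p = 6.27e-05), and the changes of ec2e (0.41 ± 0.13) and RPL19 (0.30 ± 0.10) were smaller (adjusted p = 0.0177 and 0.0303). Without control replicate 3 or re-watered replicate 3 only 1 ribosomal gene was called higher. The call of ec2e was also lost without control replicate 1, and that of RPL19 without control replicate 2 or re-watered replicate 1.

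Proteolysis genes fell together. Of 8 tested genes 7 were lower, with a median of -0.95, and the exception was the cystatin gene cys2, an inhibitor of cysteine proteases. The genes see2a and see2b encode legumain-like vacuolar processing enzymes known from senescing maize leaves. The gene see2b read 2977, 3529 and 3530 units in the controls, 2681, 2283 and 2647 units under severe drought and 1058, 888 and 707 units after re-watering. The fall was 1.93 ± 0.13 (adjusted p = 3.52e-10). The gene see2a went from 546, 589 and 590 units to 178, 157 and 163 units, a fall of 1.76 ± 0.13 (adjusted p = 8.93e-10), while severe drought gave 619, 569 and 679 units. The cysteine protease gene ccp2, among the brightest of the list, read 10306, 9418 and 7250 units and then 3098, 2861 and 2987 units, a fall of 1.58 ± 0.19 (adjusted p = 1.41e-06). In all 3 genes the re-watered arrays lay below every control and every severe array. The other lower members were ccp1, mir2 and 2 genes with the symbol mir3. The call of ccp1 was lost after median centring and without control replicate 1 or 2 or re-watered replicate 2 or 3.

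Fermentation and defence genes moved in both directions, as the 887 named genes did as a whole (158 higher and 164 lower). Of 15 genes of glycolysis and fermentation 3 were higher and 2 were lower, with a median of 0.04. The alcohol dehydrogenase genes went apart: adh1 read 1025, 688 and 969 units in the controls and 2428, 2862 and 2454 units after re-watering, and adh2 read 1035, 909 and 970 units and then 337, 277 and 268 units. The changes were 1.54 ± 0.20 and -1.71 ± 0.27 (adjusted p = 2.84e-06 and 5.35e-05). The pyruvate decarboxylase gene pdc2 rose by 1.82 ± 0.34 and the non-phosphorylating glyceraldehyde-phosphate dehydrogenase gene gpn1 by 1.70 ± 0.11 (adjusted p = 3.13e-04 and 7.01e-11). The haemoglobin gene Hb2, kept with this list, read 785, 685 and 781 units in the controls, 25.2, 4.34 and 2.32 units under severe drought and 131, 140 and 141 units after re-watering, a fall of 2.41 ± 0.52 (adjusted p = 0.00125).

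Of 18 genes of oxylipins and wound defence 5 were higher and 3 were lower, with a median of -0.02. The wound-induced protease inhibitor gene wip1 rose from 131, 153 and 55.9 units to 3190, 3646 and 3471 units (4.98 ± 0.32, adjusted p = 1.56e-10), and severe drought gave 2195, 1928 and 2332 units. The lipoxygenase gene lox3 rose by 2.33 ± 0.31 (adjusted p = 6.37e-06), and the others that rose were lox1, chn1 and stc1. The hydroperoxide lyase gene hpl1, which makes leaf aldehydes, fell from 1135, 1277 and 1116 units to 222, 217 and 301 units, by 2.25 ± 0.25 (adjusted p = 5.11e-07), while severe drought gave 834, 1284 and 1178 units. Allene oxide cyclase, aoc1, in jasmonate synthesis, fell by 1.71 ± 0.24 (adjusted p = 1.31e-05) on its brighter probe set, and its second gave 0.17 (adjusted p = 0.748). The remaining fall was that of opr5.

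Glutathione S-transferases, which attach glutathione to reactive compounds, were higher for 8 of 28 and lower for 5, with a median of 0.25. Leaving out replicate 2 of every group took the lower calls to 0, and leaving out control replicate 1 or re-watered replicate 3 took them to 2. Without re-watered replicate 2 there were 3. The gene gst19 read 9.81, 27.9 and 6.37 units in the controls, 763, 758 and 837 units under severe drought and 286, 343 and 291 units after re-watering (4.17 ± 0.24, adjusted p = 1.54e-11). Its control signals were below the filter level, and the change was 3.35 with 4 times the constant. The genes gst5, gst2 and gst37 rose by 2.19 ± 0.22, 1.55 ± 0.21 and 1.37 ± 0.18 (adjusted p = 1.13e-07, 9.36e-06 and 3.55e-06). Members of the family are alike, and shared signal was not tested. Of 14 antioxidant genes 1 was higher and 2 were lower, with a median of -0.03. Severe drought had 9 higher and 2 lower, beside 30.3% higher and 33.3% lower over all tested probe sets. The catalase gene CAT3 read 8588, 8235 and 6473 units in the controls and 2601, 3034 and 2271 units after re-watering, a fall of 1.56 ± 0.17 (adjusted p = 3.89e-07). The ferritin gene fer2, for an iron store, read 1419, 1116 and 1184 units, then 779, 787 and 683 units, and had been 4047, 4269 and 3931 units under severe drought (-0.72 ± 0.14 after re-watering, adjusted p = 4.86e-04). The metallothionein-like gene mtl2 was the higher one, at 177, 149 and 164 units against 74.3, 68.1 and 66.6 units in the controls and 1929, 2515 and 2374 units under severe drought (1.18 ± 0.28, adjusted p = 0.00271).

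**Figure D4:**
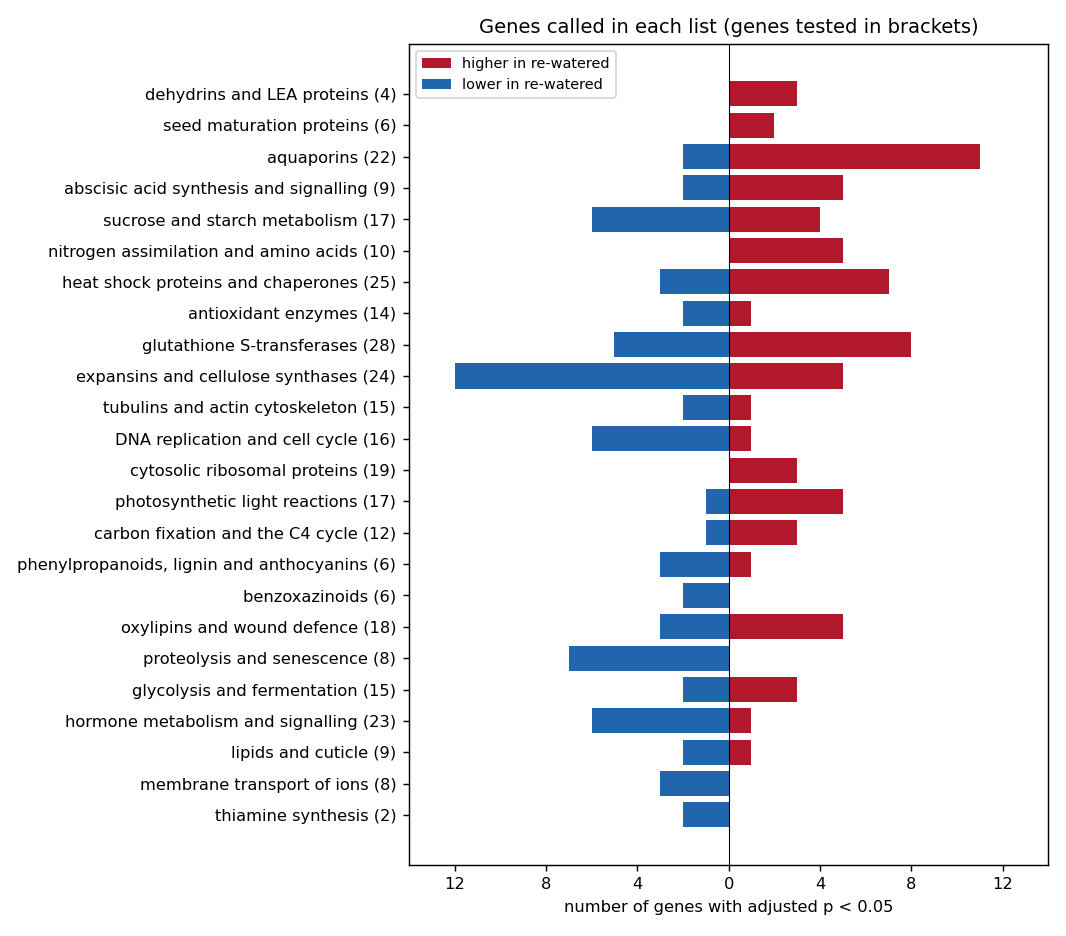
Number of genes called higher (red, to the right) or lower (blue, to the left) in re-watered than in control Ye478 at an adjusted p under 0.05, for each gene list (rows, tested genes in brackets). Over all named genes 158 of 887 were higher and 164 were lower. Aquaporins show 11 higher and 2 lower, and expansins and cellulose synthases 5 higher and 12 lower.

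Hormone genes other than those of abscisic acid were higher for 1 of 23 and lower for 6, with a median of -0.09. Most of the list, 17 of the 23 tested genes, concerns cytokinin. The 6 lower ones are among them, namely the response regulator genes crr1, RR5, RR6 and RR9, the receptor kinase gene hk2 and the cytokinin oxidase gene cko3. RR9 read 391, 428 and 417 units in the controls, 371, 444 and 388 units under severe drought and 231, 233 and 255 units after re-watering, a fall of 0.77 ± 0.14 (adjusted p = 2.00e-04). The falls of hk2 and RR5 were -0.84 ± 0.18 and -0.71 ± 0.17 (adjusted p = 0.00137 and 0.00348). Without re-watered replicate 1 only 3 were lower, and without replicate 1 or 2 of every group 2 were. The calls of cko3 and RR6 were also lost without control replicate 3 or re-watered replicate 2, and that of crr1 without control replicate 1 or re-watered replicate 1 or 3. A further gene was higher without control replicate 2 or re-watered replicate 3, which made 2. The gene that rose, ciszog1, encodes an enzyme that attaches glucose to cis-zeatin. Its signal was 73.3, 82.9 and 76.8 units in the controls, 880, 1068 and 1467 units under severe drought and 251, 297 and 258 units after re-watering (1.73 ± 0.22, adjusted p = 2.24e-06).

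Smaller lists of secondary metabolism, lipids and transport held few genes, and falls outnumbered rises by a few calls in each. Over all named genes 36.3% were called, with 158 higher and 164 lower. An excess of a few calls in lists of this size is therefore not read as a result. The counts of such lists shifted by 1 or 2 when replicate 2 of every group was left out, and no lipid gene was lower without control replicate 3 and only 1 was without control replicate 2 or re-watered replicate 1 or 2. Phenylpropanoid genes were higher for 1 of 6 and lower for 3, with a median of -0.22. The flavanone hydroxylase gene f3h read 355, 134 and 310 units in the controls and 715, 855 and 642 units after re-watering (1.56 ± 0.26, adjusted p = 8.56e-05), while ccr2, pal3 and a2 fell (log2 fold changes of -1.25 ± 0.28, -0.58 ± 0.15 and -0.52 ± 0.15, adjusted p = 0.00182, 0.00473 and 0.0127), the last not called without replicate 3 of either group. The gene myb31, for a repressor of lignin genes, fell by 1.58 ± 0.22 (adjusted p = 8.85e-06). Benzoxazinoids, the cyclic hydroxamic acids of maize seedlings, had 2 of 6 genes lower and none higher, with a median of -0.20. The entry enzyme gene bx1 read 6333, 3735 and 4422 units in the controls and 2067, 2111 and 1768 units after re-watering (-1.25 ± 0.24, adjusted p = 3.58e-04), and the beta-glucosidase gene glu2 fell by 0.86 ± 0.19 (adjusted p = 0.00157). Lipid and cuticle genes were higher for 1 of 9 and lower for 2, with a median of 0.05. The elongase gene fae1 read 648, 638 and 777 units in the controls, 24.3, 15.5 and 11.7 units under severe drought and 384, 352 and 330 units after re-watering, where it fell by 0.94 ± 0.28 against control (adjusted p = 0.0138). FAD8, for a plastid desaturase, rose by 0.46 ± 0.16 (adjusted p = 0.0377), a call that quantile normalization (adjusted p = 0.0729) and the omission of any 1 of the 6 arrays did not make. Of 8 ion transport genes 3 were lower and none was higher, with a median of -0.29. The phosphate transporter gene pht1 read 1075, 1246 and 1588 units in the controls and 308, 327 and 422 units after re-watering, a fall of 1.87 ± 0.22 (adjusted p = 7.48e-07). The proton pump gene mha4 and the exchanger gene cax1 fell (log2 fold changes of -0.57 ± 0.18 and -0.38 ± 0.10, adjusted p = 0.0191 and 0.00849). The call of mha4 was lost without control replicate 2 or 3 or re-watered replicate 1, and that of cax1 without replicate 2 or 3 of every group (adjusted p = 0.147 and 0.0711).

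Most probe sets have no gene name here. Under the conditions of the naming rule, the 2 largest rises among them were 6.61 ± 0.35 and 6.10 ± 0.40, and the 2 largest falls -5.63 ± 0.27 and -5.60 ± 0.18. All 4 exceeded the change of every gene named above, and in each the signal of one group lay below the filter level.

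The same comparison in Han21, on arrays that the Ye478 comparison does not use, called 4234 probe sets (35%), with 1906 higher (15.7%) and 2328 lower (19.2%). In both lines 1843 were called, 1684 of them in the same direction, which is 49.1% of the calls in Ye478 and 39.8% of those in Han21. Across the 12111 probe sets the changes correlated at r = 0.556, a description across genes, which are not independent replicates. A test of the difference between the lines called 1665 (13.7%), with 916 more positive in Ye478 (7.56%) and 749 more negative (6.18%). With the replicate number as a block it called 2906. It was the count most open to the choice of arrays, at 783 without replicate 1 and 295 without replicate 2 of every group. Among the 3428 probe sets called in Ye478, the difference was called for 892 (26.0%).

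Some genes changed more positively in Ye478 than in Han21. After gst19 and tip3a, the named genes bright enough for the naming rule that differed most in this direction were hsp18f, f3h, PPCK1 and gst31. A dimmer glutathione S-transferase gene, GST25, differed by 3.33 ± 0.49 (adjusted p = 1.05e-04). For tip3a the change was 4.23 ± 0.54 in Ye478 and 0.27 ± 0.54 in Han21, a difference of 3.96 ± 0.77 (adjusted p = 0.00153). Han21 read 45.1, 26.8 and 42.2 units in control and 22.3, 26.2 and 150 units after re-watering, overlapping. Without replicate 2 of every group this difference was not called (adjusted p = 0.0862). The gst19 difference was 4.13 ± 0.33 (adjusted p = 1.56e-07), with 0.04 ± 0.24 in Han21. Han21 read 1603, 1472 and 1337 units in control and 1642, 1505 and 1402 units after re-watering, so its control arrays already lay above every re-watered Ye478 array. For hsp18f it was 3.57 ± 0.36 and for PPCK1 3.12 ± 0.23 (adjusted p = 1.49e-06 and 6.02e-08). PPCK1 read 1092, 936 and 962 units in Han21 control and 1297, 1395 and 2080 units after re-watering, and its Han21 controls too lay above those of Ye478. The lines moved in opposite directions for f3h, 1.56 ± 0.26 in Ye478 and -1.65 ± 0.26 in Han21, a difference of 3.20 ± 0.37 (adjusted p = 5.61e-06). For gst31 the Ye478 value of 0.85 ± 0.34 was not called (adjusted p = 0.0644), while Han21 fell by 2.23 ± 0.34 (adjusted p = 2.86e-05), and the difference was 3.09 ± 0.48 (adjusted p = 1.76e-04). Of the 4 dehydrin and LEA genes dhn2 and mlg3 had a called difference, both more positive in Ye478. That of mlg3, 2.72 ± 0.81 (adjusted p = 0.0294), was lost with no constant (adjusted p = 0.0670) and without replicate 1 or 2 of every group (0.281 and 0.218). It was also lost without Ye478 control replicate 1 or 3, Ye478 re-watered replicate 2, or replicate 1 or 2 of either Han21 group. Of the 28 glutathione S-transferases 8 had a called difference, all more positive in Ye478. The 25 heat shock and chaperone genes had 5 more positive and 5 more negative. Over all tested probe sets 7.56% were more positive and 6.18% more negative, and the total of 1665 fell to 295 without replicate 2 of every group.

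By the same rule the most negative differences were those of Hb2, Lsi6, thi2, adh2, see2a and gln2, and the dimmer RR6 differed by -1.88 ± 0.38 (adjusted p = 0.00199). Hb2 fell in Ye478 and stood at 0.05 ± 0.52 in Han21 (adjusted p = 0.958), a difference of -2.46 ± 0.73 (adjusted p = 0.0293). For adh2 the Han21 value was -0.05 ± 0.27 and the difference -1.67 ± 0.39 (adjusted p = 0.00627). Lsi6 differed by -1.82 ± 0.38 and see2a by -1.39 ± 0.18 (adjusted p = 0.00312 and 3.13e-05). The gene thi2 fell in both lines, by 3.23 ± 0.27 in Han21, and more in Ye478 (difference -1.74 ± 0.39, adjusted p = 0.00465). The rise of gln2 was larger in Han21, 2.92 ± 0.28, with a difference of -1.27 ± 0.40 (adjusted p = 0.0380). The vp14 gene of abscisic acid synthesis rose in Ye478 and fell by 0.85 ± 0.29 in Han21 (adjusted p = 0.0276), a difference of 2.11 ± 0.41 (adjusted p = 0.00164). Without replicate 2 of every group the differences of Lsi6, adh2, thi2 and vp14 were not called (adjusted p = 0.131, 0.154, 0.0746 and 0.0678). Those of Hb2 and gln2 were lost without most of the single control or re-watered arrays of the lines, and without replicate 3 of every group (adjusted p = 0.0723 and 0.195). For other strong changes no line difference was called. The change of tip4a was -5.03 ± 0.27 in Han21 and that of thi1 was -4.53 ± 0.19, with differences of 0.43 ± 0.38 and 0.33 ± 0.27 (adjusted p = 0.504 and 0.463). The glk1 and GBSSIIa rises were 2.18 ± 0.20 and 3.23 ± 0.23 in Han21, with differences of -0.12 ± 0.29 and -0.41 ± 0.33 (adjusted p = 0.833 and 0.444).

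**Figure D5:**
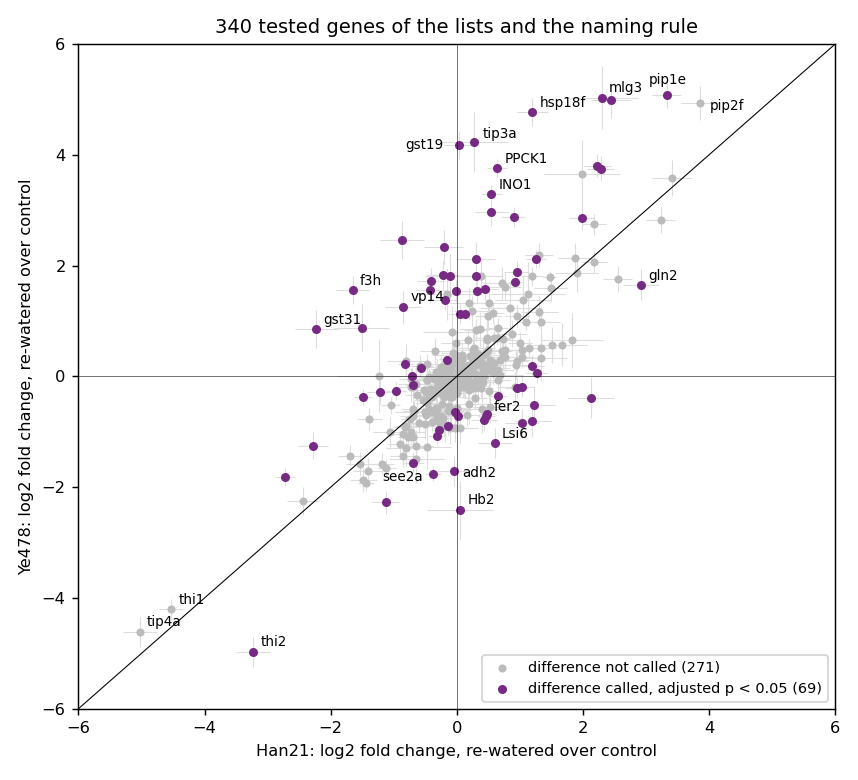
Log2 fold change of re-watered over control in Ye478 (vertical axis) against that in Han21 (horizontal axis) for 340 tested genes of the lists and the naming rule, with standard errors as grey bars and equality as the diagonal. Purple points have a called difference between the lines. The changes of tip3a, gst19 and PPCK1 were 4.23 ± 0.54, 4.17 ± 0.24 and 3.76 ± 0.16 in Ye478 and 0.27 ± 0.54, 0.04 ± 0.24 and 0.64 ± 0.16 in Han21.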

How the data were processed

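The members of the comparison and the gene lists were chosen with earlier results of these data known. The values, as the authors deposited them, are signal intensities on a linear scale, made with GCOS and MAS5 per the submitters' processing notes. Each array's trimmed mean (2% removed at each end) was 500.1 to 500.2, so the deposited intensity had been scaled to a common mean. Groups follow the sample titles. The 113 control probe sets were left out, and of 17621 others 12111 were tested, namely those that exceeded an array's 40th percentile (72.6 to 106.8 units) on 3 or more arrays, and 5510 were left out. Signals were analysed as log2(signal + 4.56), the constant being the 10th percentile of all values. Adding it understates the fold change of dim genes.

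One limma model with a mean for each of the 8 groups was fitted to all 24 arrays, which share the estimate of spread (eBayes with an intensity trend, 5.01 prior and 16 residual degrees of freedom). P-values were adjusted by Benjamini-Hochberg over the 12111 probe sets within each contrast, with a threshold of 0.05. The number of arrays limits the precision. The calling was tried on simulated data (12111 probe sets) with 50 probe sets changed at each size in re-watered Ye478. All other group means were equal, and the noise was independent between arrays. There it recovered 28% of log2 changes of 0.5, 88% of 1.0 and 100% of 2.0, and 11 of 169 calls were false. The real comparison called 3428 probe sets and its same-numbered arrays had correlated deviations, so these rates are not those of the real data.

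Gene names come from the platform annotation, updated through RefSeq, in which 1060 of 1108 genes were found. A gene is represented by its brightest probe set. The naming rule took, by log2 fold change, the top 14 called probe sets in each direction that carry 1 informative gene name, with all 3 arrays beyond the other group and the higher mean at or above the median of tested probe sets. For these genes the lack of overlap between the groups was a condition of the choice and is not a further result. It added up to 4 members of each list with the smallest adjusted p, all tested dehydrin, LEA, seed maturation and abscisic acid genes, and the 6 largest line differences each way. Lists are described by counts and medians, with no test of the list. The text names some of these genes.

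Same-numbered control and re-watered arrays had correlated deviations (0.154 to 0.692 in Ye478, 0.318 to 0.605 in Han21). The replicate number therefore served as a block in an alternative, while the main model treated the arrays as unpaired. Ye478 control replicate 2 correlated more with re-watered replicate 3 (0.284) than with its own number. A pairing by number rests on these correlations alone, since the labels give only the number. Further alternatives were quantile normalization, median centring, other filters and constants, eBayes without trend, fits of fewer arrays, a limit of 2-fold and leaving out arrays. Tables were handled in Python 3.11.15 (pandas 2.3.3, numpy 2.4.6), figures drawn with matplotlib 3.10.9, and models fitted in R 4.3.3 (limma 3.58.1).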

Additional observations from a re-analysis of the deposited data

Results flagged for a closer look

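The change from control to re-watered plants differed between the lines, by the test of the difference itself (Ye478 minus Han21 on the log2 scale, adjusted p under 0.05 in limma), for the genes below. No cause of these differences was tested. More positive in Ye478 were gst19 (4.13), tip3a (3.96), hsp18f (3.57), GST25 (3.33), f3h (3.20), PPCK1 (3.12), gst31 (3.09), INO1 (2.74) and mlg3 (2.72). The value was 2.54 for lox3, 2.53 for wip1, 2.42 for hsp18a, 2.14 for ciszog1, 2.11 for vp14 and 2.05 for expA4. Differences between 1 and 2 were found for dhn2 (1.97), lox1 (1.91), hsp18 (1.81), pip1e (1.75), hsp101 (1.57), adh1 (1.56), gst37 (1.56), psy2 (1.50), sat1 (1.47), pdc2 (1.43), gst2 (1.23), incw1 (1.14), GBF1 (1.07) and bx1 (1.02). The value was 1.00 for PIP1-3, 0.93 for pgr5, 0.92 for SAG, 0.87 for hsp22, 0.86 for ivr2, 0.76 for gpn1 and 0.45 for RPL19.

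More negative in Ye478 were Hb2 (-2.46), RR6 (-1.88), Lsi6 (-1.82), thi2 (-1.74), adh2 (-1.67), see2a (-1.39), gln2 (-1.27), pcna2 (-1.21), fer2 (-1.19), pcna1 (-1.16), mstr1 (-1.14), CAT3 (-0.87), zpu1 (-0.77), pdi10 (-0.75), RR5 (-0.73) and pdi (-0.69). For fer2 the changes had opposite signs, with a fall in Ye478 and a rise in Han21. Of these 52 differences 17 were called under every alternative, 33 were not called without replicate 2 of every group, and none was lost with the replicate block.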

How the results depend on the processing

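The number of arrays limits what can be called, and depth in the sense of read counts does not apply. The Ye478 count of 3428 stayed within 1.5 times under every alternative but 2: at least 2-fold left 1131, and leaving out arrays gave 1698 to 3263 (749 to 1349 higher, 949 to 1914 lower), the lowest without replicate 2 of every group. With the replicate block it was 4538. The count for severe drought against control was 6156 to 7045 with arrays left out, and that for re-watered against severe drought 6483 to 7255. The Han21 count of 4234 was 1073 at 2-fold and 2195 to 3737 with arrays left out, the lowest again without replicate 2, and 5378 with the block. The line difference of 1665 depended most on the choices: 843 at 2-fold, 2906 with the block (1430 more positive, 1476 more negative), and 295 to 1907 with arrays left out (226 to 967 more positive, 69 to 940 more negative). Its negative calls also moved by over 1.5 times without re-watered replicate 1 of Ye478 (473) or of Han21 (458), Ye478 control replicate 3 (421) or Han21 control replicate 2 (415). Median centring turned the Ye478 split from 42.5% to 52.4% higher, and quantile normalization gave 48.9%. Of 130 called genes in the text 89 kept their call under all the alternatives that could test them, and none of 141 genes changed direction past the threshold. Of 2664 gene values 180 lost the call and 16 gained one. With the block no called gene was lost. No separate value was computed for named genes that the stricter filter removed.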
